A study of Mus musculus with 13 samples.

Results

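Ribosome biogenesis factors are the proteins that build ribosomes in the nucleolus and escort the unfinished subunits to the cytoplasm. The set examined here was a list of 37 such genes, chosen by name and read from the row of each gene symbol in the deposited array table. Of the 37 genes, 34 had a row and 33 passed the filter on low signal, out of 10601 genes tested and 19505 symbols on the array. No row carried the symbol of Nop56, Gnl3 or Ebna1bp2, so their signals were not analysed here. Dkc1, the pseudouridine synthase of box H/ACA particles, had a row but lay below its array's median on all 13 arrays and was not tested. Of the tested members, 32 lay above the median on all 13 arrays and Polr1a on 11.

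RNA came from the complete bone marrow of C57Bl/6J mice that had been irradiated with 7 Gy and given LSK cells, which are rich in blood stem and progenitor cells, from Cas9 knock-in mice. The donor cells had received guide RNAs 24 h before transplantation, so Cas9 was shared by all groups. There were 4 arrays of BRSST-Ezh2 (the BRSST guide combination plus sgEzh2), 5 arrays of BRSST-Luc (the same combination plus the control guide sgLuc) and 4 arrays of Luc (sgLuc without the combination). The genes that BRSST targets are not spelled out in the labels. Marrow was taken when a mouse showed signs of leukemia or after 6 months, without a record per sample of which applied. Ages, the share of edited cells and the share of recipient cells in the marrow are not stated in the labels. Whether arrays of a group stem from different mice is not stated, and a p-value here speaks only of the spread between arrays, part or all of which may be technical.

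Ribosomes are made in a fixed order of steps. RNA polymerase I (Pol I) transcribes the rDNA, small nucleolar ribonucleoproteins (snoRNPs) guide methylation and pseudouridylation of the transcript, and separate sets of assembly factors then shape the small and the large subunit. The transcription factor Myc is known to raise many of these genes, and dividing blood progenitors are known to depend on them. All values below are log2 signals, so a difference of 1 is a 2-fold change, and each row has its own probes, so signals are compared between arrays and not between genes.

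Median log2 signal ran from 7.193 to 7.322 over the arrays. Ezh2, the target of sgEzh2 and a histone methyltransferase, averaged 8.78 ± 0.50 in BRSST-Ezh2, 9.82 ± 0.50 in BRSST-Luc and 10.35 ± 0.28 in Luc (SD, n = 4, 5 and 4). On the first principal component, with 39.5% of the variance, the Luc arrays (27.5 to 34.3) stood apart from both BRSST groups, whose arrays were all below 0. BRSST-Luc 2 and BRSST-Luc 5 lay farthest apart on the second component, at 37.1 and -32.2. Uty and Kdm5d, which are Y-linked, were high on 2 of 4 BRSST-Ezh2 arrays, 2 of 5 BRSST-Luc arrays and 4 of 4 Luc arrays. Y-linked signal thus went partly with the groups in both comparisons with Luc, and the main fit has no term for it. Sample numbers in the labels were continuous over the 2 BRSST groups and separate for Luc, so any difference in handling that went with them and the Luc group cannot be told apart.

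Ribosome biogenesis factors were higher with BRSST guides than with sgLuc alone, in part of the set, and none fell. In BRSST-Luc against Luc, 8 of 33 tested members rose (24.2%) and 0 fell at a limma adjusted p under 0.05, while 10.8% of all tested genes rose and 11.7% fell. Against Luc, BRSST-Ezh2 had 5 of 33 members higher (15.2%) and 0 fell, while 5.51% of all tested genes rose and 3.86% fell. In BRSST-Ezh2 against BRSST-Luc, 0 of 33 rose and 0 fell, while 0.67% of all tested genes rose and 0.113% fell. In whole marrow, fewer cells of a type and less RNA per cell cannot be told apart.

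The middle of the set was set beside that of all tested genes. The median log2 difference over the 33 members was 0.249 in BRSST-Luc against Luc, where it was 0.009 over all tested genes. It was 0.297 in BRSST-Ezh2 against Luc, beside 0.023 over all tested genes, and 0.114 in BRSST-Ezh2 against BRSST-Luc, beside 0.013. Those member medians correspond to 1.19-fold, 1.23-fold and 1.08-fold. Differences above 0 were found for 26 of 33 members, 31 of 33 members and 23 of 33 members in the same order of comparisons, and over all tested genes for 51.1%, 53.7% and 52.6%. The 3 comparisons share arrays, so their values are given side by side and are not independent of each other.

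**Figure D1:**
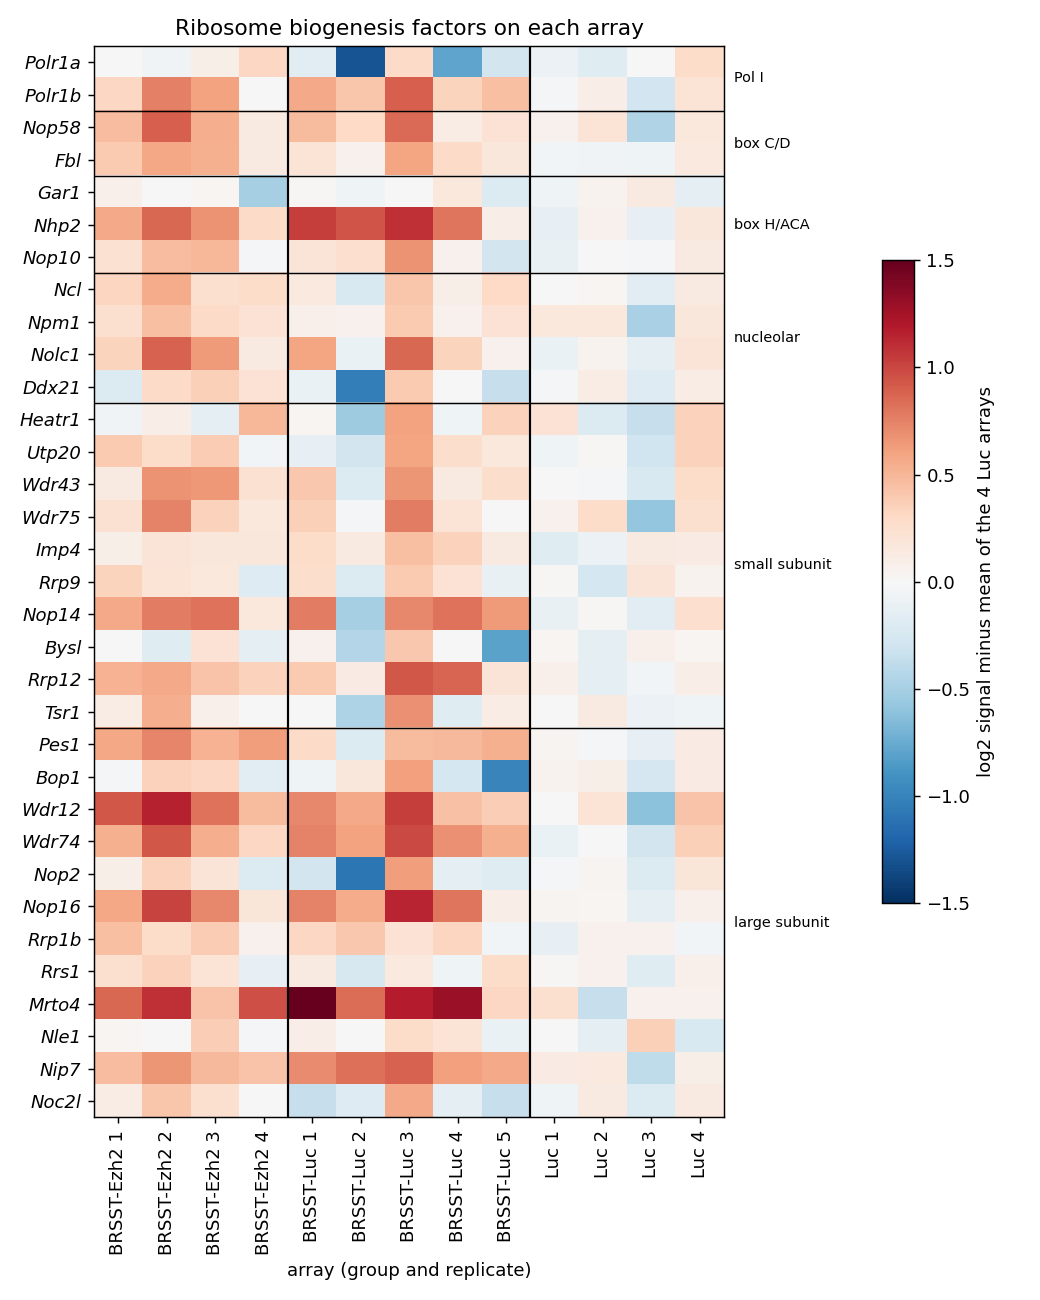
Log2 signal of the 33 tested ribosome biogenesis factors (rows, grouped by role) on each of the 13 arrays (columns), as the difference from the mean of the 4 Luc arrays, with red for higher and blue for lower. BRSST-Luc 3 is above the Luc mean for 33 of 33 members, while BRSST-Luc 2 is above it for 16 of 33.

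Large subunit factors held most of the changed members. Of 12 tested, 5 rose in BRSST-Luc against Luc (Wdr12, Wdr74, Nop16, Mrto4 and Nip7), where 10.8% of all tested genes rose. In BRSST-Ezh2 against Luc 5 rose (Pes1, Wdr12, Wdr74, Mrto4 and Nip7), where 5.51% of all tested genes rose. These made up 5 of the 8 members that rose in the first comparison and all 5 in the other, and whether the roles differ was not tested. The median log2 differences of the 12 were 0.284 and 0.404. None of the 12 passed the test in BRSST-Ezh2 against BRSST-Luc, where their median was 0.079.

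Mrto4, which holds the place of a stalk protein on the unfinished large subunit (known from its yeast counterpart Mrt4), had the largest difference of the set. It read 9.25, 9.48, 8.82 and 9.36 on the 4 BRSST-Ezh2 arrays, 9.92, 9.23, 9.57, 9.69 and 8.70 on the 5 BRSST-Luc arrays, and 8.63, 8.04, 8.45 and 8.45 on the 4 Luc arrays. Every BRSST array was above every Luc array, with BRSST-Luc 5 at 0.07 above the highest of them. Mrto4 rose by log2 1.03 ± 0.22 (SE) in BRSST-Luc against Luc (2.04-fold, limma adjusted p = 0.00521) and by 0.84 ± 0.23 in BRSST-Ezh2 against Luc (1.79-fold, adjusted p = 0.0385). In BRSST-Ezh2 against BRSST-Luc its difference was -0.19 ± 0.22, with a 95% interval of -0.67 to 0.28. The call in BRSST-Ezh2 against Luc was lost when BRSST-Ezh2 1, 2 or 4 or any 1 of the 4 Luc arrays was left out (adjusted p up to 0.118).

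Nip7, a factor for pre-rRNA processing, had the smallest adjusted p of the set in BRSST-Luc against Luc. Its signal was 8.59, 8.79, 8.62 and 8.56 in BRSST-Ezh2, 8.84, 8.96, 9.02, 8.75 and 8.70 in BRSST-Luc, and 8.25, 8.28, 7.75 and 8.22 in Luc. No BRSST array overlapped the Luc arrays, and Luc 3 lay well below the other Luc arrays. Nip7 rose by log2 0.73 ± 0.12 in BRSST-Luc against Luc (1.66-fold, limma adjusted p = 0.00129) and by 0.51 ± 0.13 in BRSST-Ezh2 against Luc (1.43-fold, adjusted p = 0.0238). Without BRSST-Ezh2 1, BRSST-Ezh2 2 or Luc 3 the second call was lost (adjusted p up to 0.0798). BRSST-Ezh2 and BRSST-Luc differed by -0.22 ± 0.12 for this gene, with a 95% interval of -0.48 to 0.05.

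Wdr74, which works with the ATPase Nvl in releasing factors from the unfinished large subunit, was also called in both comparisons with Luc. Its signal stood at 10.15, 10.55, 10.16 and 9.93 in BRSST-Ezh2, at 10.36, 10.22, 10.61, 10.30 and 10.15 in BRSST-Luc, and at 9.52, 9.62, 9.34 and 9.98 in Luc. The 5 BRSST-Luc arrays were all above the Luc arrays, while BRSST-Ezh2 4 lay just below Luc 4. The rise was log2 0.71 ± 0.15 in BRSST-Luc against Luc (1.64-fold, limma adjusted p = 0.00521) and 0.58 ± 0.16 in BRSST-Ezh2 against Luc (1.50-fold, adjusted p = 0.0371). The call in BRSST-Ezh2 against Luc was lost without BRSST-Ezh2 1, 2 or 3, BRSST-Luc 1, or Luc 1, 2 or 3 (adjusted p up to 0.12) and with the replicate number as a block (0.0699). Nvl itself, no member of the set, fell by 0.52 on the log2 scale in BRSST-Luc against Luc (SE 0.17, adjusted p = 0.0384).

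Pes1, Bop1 and Wdr12 form the PeBoW complex, which is needed for processing of the large subunit's rRNA, and its subunits were measured separately. Wdr12 read 9.03, 9.26, 8.92 and 8.58 in BRSST-Ezh2, 8.82, 8.67, 9.14, 8.54 and 8.47 in BRSST-Luc, and 8.09, 8.31, 7.48 and 8.53 in Luc. The BRSST-Ezh2 arrays lay above all Luc arrays, whereas BRSST-Luc 5 lay below Luc 4. Wdr12 rose by 0.84 ± 0.22 in BRSST-Ezh2 against Luc (1.80-fold, limma adjusted p = 0.0263) and by 0.63 ± 0.21 in BRSST-Luc against Luc (1.54-fold, adjusted p = 0.0424). The first of these calls was lost without BRSST-Ezh2 1 or 2 or Luc 1 or 3 (adjusted p up to 0.0888) and with the replicate number as a block (0.0534). The second was lost without BRSST-Ezh2 1 or 3, BRSST-Luc 1, 3 or 4, or Luc 1, 2 or 3 (up to 0.127), with the replicate number as a block (0.0607), with the class of Y-linked signal as a block (0.0537), without the filter (0.0574) and with the 2 compared groups alone (0.0622).

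Pes1, the PeBoW subunit named for the zebrafish gene pescadillo, read 11.29, 11.44, 11.23 and 11.34 in BRSST-Ezh2, 11.00, 10.51, 11.19, 11.20 and 11.24 in BRSST-Luc, and 10.75, 10.68, 10.59 and 10.83 in Luc. The BRSST-Ezh2 arrays were tightly grouped above all Luc arrays, and BRSST-Luc 2 was below every Luc array. Pes1 rose in BRSST-Ezh2 against Luc by 0.61 ± 0.15 (1.53-fold, limma adjusted p = 0.0188), a call that was lost without BRSST-Ezh2 2, Luc 2 or Luc 3 (adjusted p up to 0.0598). In BRSST-Luc against Luc its difference was 0.32 ± 0.14 (adjusted p = 0.119), and without BRSST-Luc 2 the adjusted p was 0.00488. Bop1, the third subunit, read 10.18, 10.55, 10.52 and 10.04 in BRSST-Ezh2, 10.14, 10.38, 10.82, 9.95 and 9.22 in BRSST-Luc, and 10.26, 10.30, 9.96 and 10.33 in Luc. Its groups overlapped in all comparisons, with differences of 0.11 ± 0.26 in BRSST-Ezh2 against Luc (adjusted p = 0.856) and -0.11 ± 0.24 in BRSST-Luc against Luc (adjusted p = 0.791). Whether Bop1 moved differently from Pes1 and Wdr12 was not tested.

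Nop16, a factor of early large subunit particles, read 10.54, 10.97, 10.68 and 10.14 in BRSST-Ezh2, 10.70, 10.52, 11.10, 10.76 and 10.06 in BRSST-Luc, and 10.00, 9.99, 9.83 and 10.04 in Luc. All 9 BRSST arrays lay above the Luc arrays. Nop16 rose by 0.66 ± 0.19 in BRSST-Luc against Luc (1.58-fold, limma adjusted p = 0.024), which was lost without BRSST-Luc 1, BRSST-Luc 4 or Luc 1, 2 or 3 (adjusted p up to 0.0632). The difference in BRSST-Ezh2 against Luc was 0.62 ± 0.20 (adjusted p = 0.0721), and it passed in some alternative fits, such as without BRSST-Ezh2 4 (adjusted p = 0.0324).

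The other 6 large subunit factors passed no test. Nop2, an rRNA cytosine methyltransferase, differed by 0.11 ± 0.26 in BRSST-Ezh2 against Luc and by -0.21 ± 0.25 in BRSST-Luc against Luc. BRSST-Luc 2 was its lowest array at 8.95 and BRSST-Luc 3 its highest at 10.66, so 1 group spanned all others. Rrp1b, the counterpart of yeast Rrp1, differed by 0.29 ± 0.12 and 0.25 ± 0.11 in the same comparisons (adjusted p = 0.15 and 0.135). Rrs1, which helps to dock a small ribonucleoprotein on the large subunit, differed by 0.17 ± 0.13 and 0.06 ± 0.13. Nle1, whose yeast counterpart is removed by the ATPase Rea1, differed by 0.10 ± 0.14 and 0.10 ± 0.13. Noc2l, related to yeast Noc2, differed by 0.19 ± 0.18 and -0.09 ± 0.17.

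**Figure D2:**
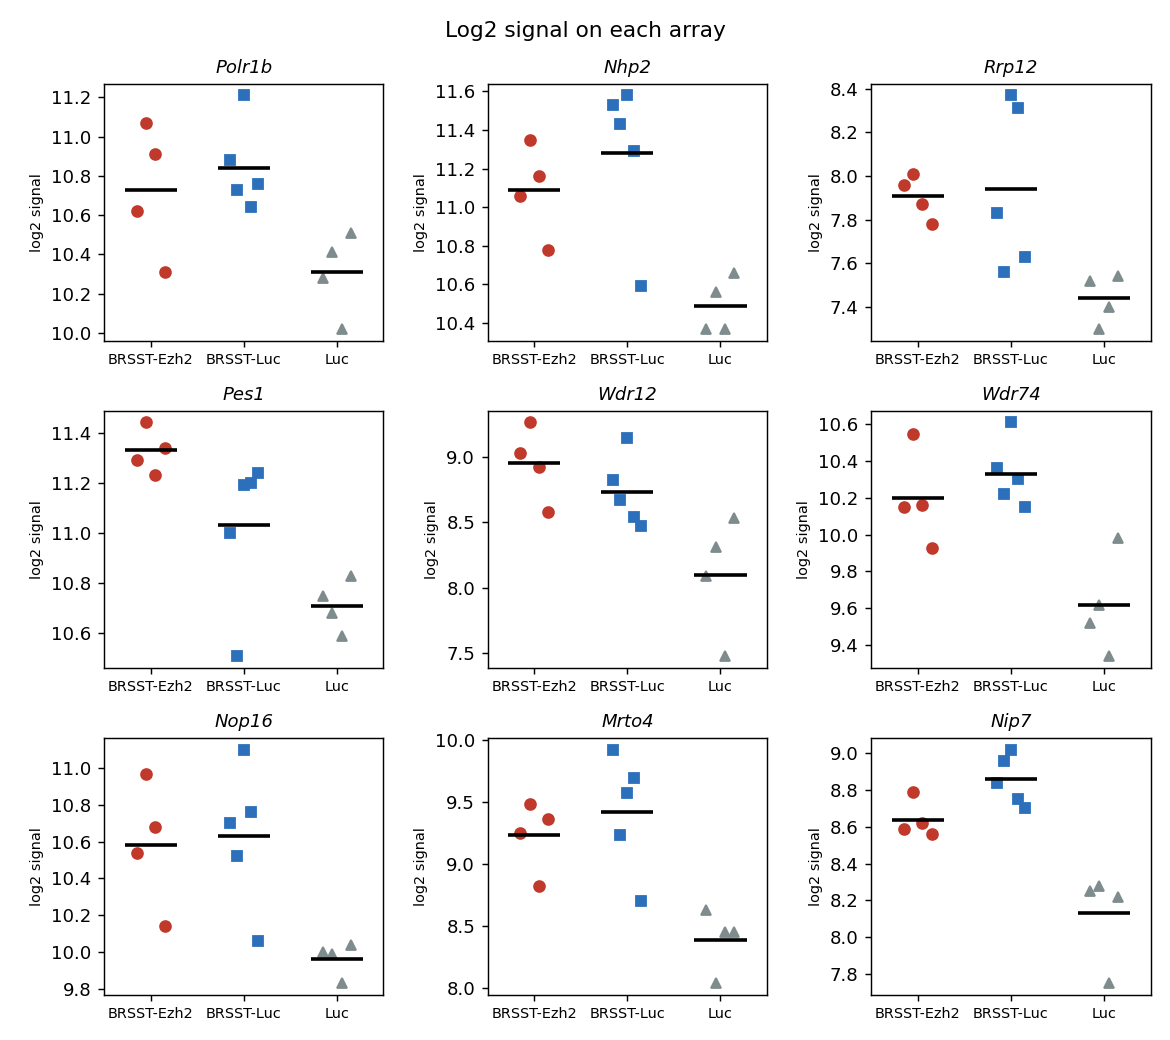
Log2 signal of the 9 members called in at least 1 comparison on each array, by group, with a black line at the group mean and a separate vertical scale for each gene. Mrto4, Nip7, Nop16 and Rrp12 have all BRSST-Ezh2 and BRSST-Luc points above all Luc points.

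The start-site windows of 5 of the called members are shown because 4 of them were called in BRSST-Luc against Luc whichever array was left out, because Pes1 is the called member with the motif below, and because promoters of this pathway are known for the E-box bound by Myc with Max. Each window holds 250 bases before and 50 bases after the gene's start in RefSeq on GRCm38.p6, on the gene's own strand, in lower case with any CACGTG in capitals.
Mrto4 (chr4:139352527-139352826, minus strand): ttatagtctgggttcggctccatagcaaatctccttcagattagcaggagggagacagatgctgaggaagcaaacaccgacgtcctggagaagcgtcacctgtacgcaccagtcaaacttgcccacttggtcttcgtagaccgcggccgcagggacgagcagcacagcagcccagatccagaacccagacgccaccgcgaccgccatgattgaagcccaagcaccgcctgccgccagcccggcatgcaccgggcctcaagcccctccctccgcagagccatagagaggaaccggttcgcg
Nip7 (chr8:107056627-107056926, plus strand): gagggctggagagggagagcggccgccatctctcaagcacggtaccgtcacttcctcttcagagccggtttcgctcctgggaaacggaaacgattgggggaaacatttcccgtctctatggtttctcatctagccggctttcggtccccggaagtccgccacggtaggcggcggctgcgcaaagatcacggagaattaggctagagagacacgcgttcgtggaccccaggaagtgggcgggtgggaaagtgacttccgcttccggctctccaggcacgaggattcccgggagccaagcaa
Wdr74 (chr19:8735589-8735888, plus strand): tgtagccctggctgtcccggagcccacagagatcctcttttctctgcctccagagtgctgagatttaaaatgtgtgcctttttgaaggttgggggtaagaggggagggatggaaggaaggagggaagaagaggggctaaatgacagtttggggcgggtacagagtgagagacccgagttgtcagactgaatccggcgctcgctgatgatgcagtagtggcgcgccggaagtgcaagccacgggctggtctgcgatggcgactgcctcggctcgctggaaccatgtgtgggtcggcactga
Nhp2 (chr11:51619523-51619822, plus strand): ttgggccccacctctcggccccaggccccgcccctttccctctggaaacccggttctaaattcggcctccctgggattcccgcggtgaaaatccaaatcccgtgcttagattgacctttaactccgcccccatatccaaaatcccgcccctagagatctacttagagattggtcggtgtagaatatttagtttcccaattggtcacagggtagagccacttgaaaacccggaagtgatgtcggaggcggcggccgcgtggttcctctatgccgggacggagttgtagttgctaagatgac
Pes1 (chr11:3963725-3964024, plus strand): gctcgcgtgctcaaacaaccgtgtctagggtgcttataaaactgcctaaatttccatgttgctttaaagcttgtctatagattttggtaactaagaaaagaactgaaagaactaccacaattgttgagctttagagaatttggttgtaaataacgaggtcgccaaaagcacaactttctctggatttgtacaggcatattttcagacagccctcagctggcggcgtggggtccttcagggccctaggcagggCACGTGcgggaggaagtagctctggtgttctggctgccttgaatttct

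CACGTG reads the same on both strands. It was present for 7 of the 28 tested members with a window (25.0%), beside 1011 of 8675 tested genes with a window (11.7%). It was present for 7 of the 32 members with a window, tested or not (21.9%), beside 2349 of 32851 over all promoter windows (7.15%). That last share takes in genes that were not tested, so it is not like for like. The median share of G and C bases was 57.5% for members, 60.3% for tested genes and 52.7% over all windows. Wdr12, Noc2l and Rrp1b had several windows each, none with the motif. The 7 members were Pes1, shown above, and Imp4, Nle1, Nop2, Tsr1, Utp20 and Wdr43. Among members that rose in BRSST-Ezh2 against Luc, 1 of 5 had it, and among those that rose in BRSST-Luc against Luc with a window, 0 of 7 had it. A match is a description of letters and no binding was measured. Npm1, Fbl, Rrs1, Bop1 and Rrp12 were not analysed here for this motif.

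Of the 10 small subunit factors, 1 rose in BRSST-Luc against Luc, a share at that of all tested genes (10.8%). In BRSST-Ezh2 against Luc 0 of 10 changed (limma), where 5.51% of all tested genes rose and 3 of the 10 had an unadjusted p under 0.05. Rrp12, a factor for the maturation and export of both subunits in yeast, read 7.96, 8.01, 7.87 and 7.78 in BRSST-Ezh2, 7.83, 7.56, 8.37, 8.31 and 7.63 in BRSST-Luc, and 7.52, 7.30, 7.40 and 7.54 in Luc. The BRSST arrays were all above the Luc arrays, and BRSST-Luc 3 and 4 were well above the other 3 arrays of their group. Rrp12 rose by 0.50 ± 0.16 in BRSST-Luc against Luc (1.41-fold, limma adjusted p = 0.0405). The call was lost without BRSST-Ezh2 1 or 3, BRSST-Luc 1, 3 or 4, or any 1 of the 4 Luc arrays (adjusted p up to 0.11), without the filter (0.0555) and with the 2 compared groups alone (0.0784). BRSST-Ezh2 differed from Luc by 0.47 ± 0.17 (adjusted p = 0.106).

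Nop14, needed for early processing of the small subunit's rRNA, read 9.30, 9.50, 9.54 and 8.89 in BRSST-Ezh2, 9.50, 8.23, 9.45, 9.55 and 9.37 in BRSST-Luc, and 8.62, 8.75, 8.56 and 8.98 in Luc. BRSST-Luc 2 was below all Luc arrays, and the other 4 BRSST-Luc arrays were above them. Its differences of 0.58 ± 0.25 in BRSST-Ezh2 against Luc (limma adjusted p = 0.171) and 0.49 ± 0.24 in BRSST-Luc against Luc (adjusted p = 0.16) did not pass. Without BRSST-Luc 2, Nop14 differed by 0.74 ± 0.14 in BRSST-Luc against Luc (adjusted p = 0.00266). Imp4, a partner of the U3 snoRNA, averaged 9.98 ± 0.04 in BRSST-Ezh2, 10.09 ± 0.14 in BRSST-Luc and 9.82 ± 0.16 in Luc, and its difference in BRSST-Luc against Luc was 0.27 ± 0.10 (adjusted p = 0.0766). Bysl, which acts late on the small subunit, differed by -0.02 ± 0.21 in BRSST-Ezh2 against Luc and by -0.15 ± 0.20 in BRSST-Luc against Luc. The scaffold proteins Heatr1, Utp20, Wdr43 and Wdr75, the U3 protein Rrp9 and the late factor Tsr1 had differences from 0.10 to 0.43 in BRSST-Ezh2 against Luc and from 0.04 to 0.26 in BRSST-Luc against Luc.

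Of the Pol I subunits, 1 of 2 rose in BRSST-Luc against Luc and 0 of 2 changed in BRSST-Ezh2 against Luc (limma, 1 at an unadjusted p under 0.05). Over all tested genes 10.8% and 5.51% rose in these comparisons, and 2 genes are too few to set beside such shares. Polr1b, which forms the catalytic centre together with Polr1a, read 10.62, 11.07, 10.91 and 10.31 in BRSST-Ezh2, 10.88, 10.73, 11.21, 10.64 and 10.76 in BRSST-Luc, and 10.28, 10.41, 10.02 and 10.51 in Luc. All BRSST-Luc arrays were above the Luc arrays, and BRSST-Ezh2 4 lay among them. Polr1b rose by 0.54 ± 0.16 in BRSST-Luc against Luc (1.45-fold, limma adjusted p = 0.0311), a call lost without BRSST-Luc 1 or 3 or Luc 1, 2 or 3 (adjusted p up to 0.0942) and with the replicate number (0.0551) or the class of Y-linked signal (0.0619) as a block. Its difference in BRSST-Ezh2 against Luc was 0.42 ± 0.17 (adjusted p = 0.152).

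Polr1a, the largest catalytic subunit, read 7.75, 7.71, 7.85 and 8.07 in BRSST-Ezh2, 7.59, 6.46, 8.05, 6.97 and 7.49 in BRSST-Luc, and 7.67, 7.58, 7.75 and 8.03 in Luc. BRSST-Luc 2 and 4 were its lowest arrays, and the BRSST-Ezh2 and Luc arrays lay close together. The differences were 0.53 ± 0.24 in BRSST-Ezh2 against BRSST-Luc, -0.45 ± 0.24 in BRSST-Luc against Luc and 0.08 ± 0.26 in BRSST-Ezh2 against Luc (limma adjusted p = 0.354, 0.216 and 0.892). Without BRSST-Luc 3, Polr1a was called lower in BRSST-Luc against Luc, by -0.63 ± 0.21 (adjusted p = 0.0481).

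Among the snoRNP proteins, 1 of 5 tested members changed, in 1 comparison. It rose in BRSST-Luc against Luc, where 10.8% of all tested genes rose, and a count this small does not set the role apart. Nhp2, an RNA-binding protein of the box H/ACA particles that direct pseudouridylation and of telomerase, read 11.06, 11.35, 11.16 and 10.78 in BRSST-Ezh2, 11.53, 11.43, 11.58, 11.29 and 10.59 in BRSST-Luc, and 10.37, 10.56, 10.37 and 10.66 in Luc. The BRSST-Luc arrays were above the Luc arrays except for BRSST-Luc 5, which lay below Luc 4, and all BRSST-Ezh2 arrays were above Luc. Nhp2 rose by 0.80 ± 0.19 in BRSST-Luc against Luc (1.74-fold, limma adjusted p = 0.00825). In BRSST-Ezh2 against Luc the difference was 0.60 ± 0.20 (adjusted p = 0.0721). BRSST-Luc 5 belongs to neither group, and without it the difference stayed at 0.60 while the SE became 0.13 (adjusted p = 0.00999). With the 2 compared groups alone the adjusted p was 0.0139.

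The partners of Nhp2 in the same particle did not pass. Gar1 averaged 10.75 ± 0.27 in BRSST-Ezh2, 10.82 ± 0.13 in BRSST-Luc and 10.84 ± 0.13 in Luc, with differences of -0.09 and -0.01 from Luc. Nop10 differed by 0.29 ± 0.17 in BRSST-Ezh2 against Luc (limma adjusted p = 0.333) and by 0.18 ± 0.17 in BRSST-Luc against Luc (adjusted p = 0.483). Dkc1, not tested, averaged 6.28 ± 0.60 in BRSST-Ezh2, 6.44 ± 0.58 in BRSST-Luc and 6.11 ± 0.44 in Luc (SD, n = 4, 5 and 4).

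Box C/D particles direct rRNA methylation. Fbl (fibrillarin), their methyltransferase, read 11.42, 11.61, 11.56 and 11.17 in BRSST-Ezh2, 11.24, 11.10, 11.62, 11.32 and 11.20 in BRSST-Luc, and 10.99, 10.98, 10.97 and 11.18 in Luc. Luc 4 overlapped both BRSST groups, and the other Luc arrays lay below them. Fbl differed by 0.41 ± 0.13 in BRSST-Ezh2 against Luc (limma adjusted p = 0.0667) and by 0.26 ± 0.12 in BRSST-Luc against Luc (adjusted p = 0.147). Nop58, a scaffold of the same particle, differed by 0.51 ± 0.20 (adjusted p = 0.123) and 0.39 ± 0.19 (adjusted p = 0.148) in those comparisons. Fbl passed in BRSST-Ezh2 against Luc in some alternative fits, such as without BRSST-Ezh2 4 (adjusted p = 0.0327).

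Nucleolar chaperones and scaffolds had 0 of 4 members called in any comparison (limma), with 2 at an unadjusted p under 0.05 in BRSST-Ezh2 against Luc and 0 in the others. Over all tested genes, 10.8% rose in BRSST-Luc against Luc and 5.51% in BRSST-Ezh2 against Luc. Ncl (nucleolin), an RNA-binding protein of the nucleolus, read 11.04, 11.28, 10.96 and 10.99 in BRSST-Ezh2, 10.87, 10.49, 11.14, 10.81 and 11.02 in BRSST-Luc, and 10.73, 10.75, 10.55 and 10.85 in Luc. Npm1 (nucleophosmin), a nucleolar chaperone often mutated in human acute myeloid leukemia, read 11.73, 11.94, 11.78 and 11.71 in BRSST-Ezh2, 11.57, 11.55, 11.88, 11.55 and 11.71 in BRSST-Luc, and 11.65, 11.65, 11.00 and 11.66 in Luc. Both genes had all BRSST-Ezh2 arrays above all Luc arrays, with differences of 0.35 and 0.30 (adjusted p = 0.139 and 0.237). For Npm1 the gap to the highest Luc array was 0.05, and Luc 3 lay far below the others. Nolc1, a chaperone of snoRNPs, differed by 0.49 ± 0.21 in BRSST-Ezh2 against Luc (adjusted p = 0.158), and Ddx21, an RNA helicase, by 0.16 ± 0.24 (adjusted p = 0.744).

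Groups that did not overlap were counted beside the test. In BRSST-Ezh2 against Luc, 9 of 33 members had every BRSST-Ezh2 array above every Luc array (Nhp2, Ncl, Npm1, Rrp12, Pes1, Wdr12, Nop16, Mrto4 and Nip7), against 14.2% of all tested genes. In BRSST-Luc against Luc, 6 of 33 members did (Polr1b, Rrp12, Wdr74, Nop16, Mrto4 and Nip7), against 9.09% of all tested genes. In BRSST-Ezh2 against BRSST-Luc, 0 of 33 did, against 2.52% of all tested genes.

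The comparison of BRSST-Ezh2 with BRSST-Luc asks what sgEzh2 adds to the BRSST combination. No member passed the test (limma, smallest adjusted p = 0.354), and 1 had an unadjusted p under 0.05, Polr1a at 0.0483. Differences ran from -0.22 (Nip7) to 0.53 (Polr1a). The 95% intervals held 0 for 32 of 33 members, and their bounds ran from -0.67 (Mrto4) to 1.06 (Polr1a). For 32 of 33 members the interval lay within 2-fold in either direction, and the median distance from estimate to bound was log2 0.37. For the 4 members called in BRSST-Luc against Luc whichever array was left out, the differences between BRSST-Ezh2 and BRSST-Luc were -0.19 for Mrto4, -0.20 for Nhp2, -0.22 for Nip7 and -0.13 for Wdr74, none past the test. Pes1 differed by 0.30 ± 0.14, with an interval up to 0.60.

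**Figure D3:**
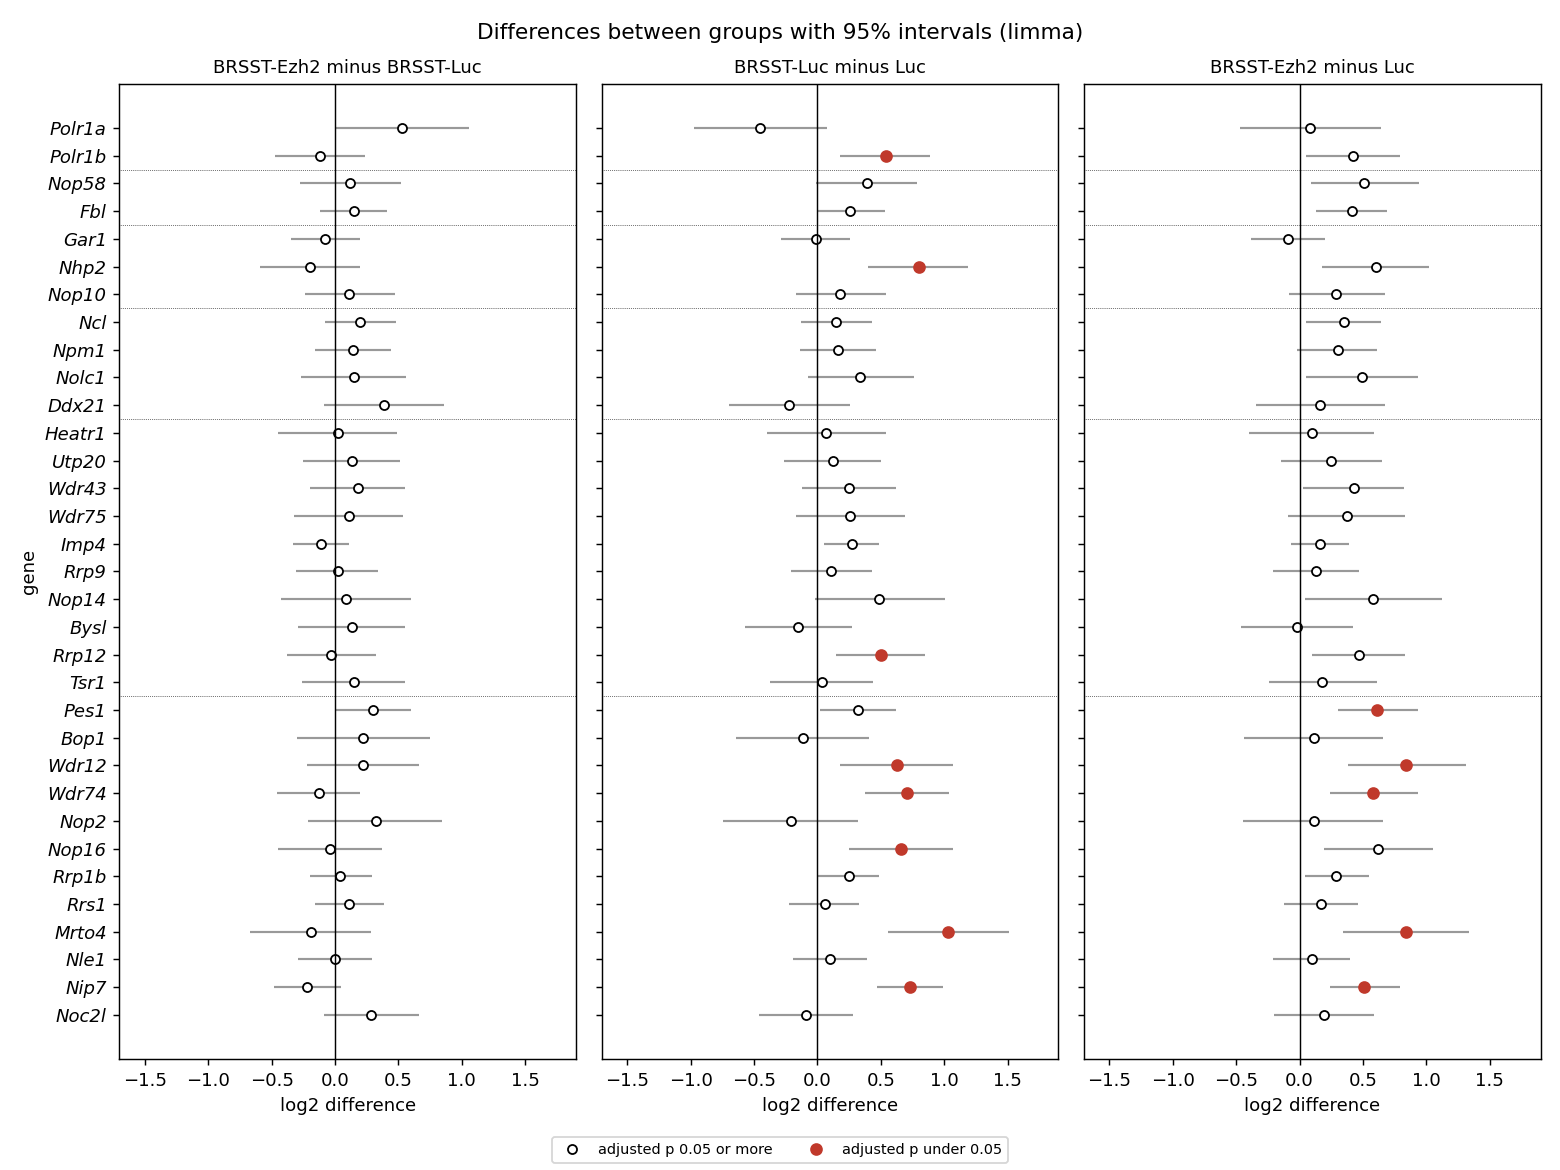
Log2 difference of each of the 33 tested members in the 3 comparisons, with points for limma estimates, lines for 95% intervals and filled points for adjusted p under 0.05. Filled points number 0, 8 and 5 from left to right and all lie above 0.

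The counts depended on single arrays. The share of all tested genes called in each left-out fit is not given here, so these counts describe the members only. Without 1 array, 4 to 10 members changed in BRSST-Luc against Luc. The count was 4 without BRSST-Luc 1, Luc 1, Luc 2 or Luc 3 and 5 without BRSST-Luc 4. In each of these left-out fits, as with the 13 arrays, Mrto4, Nhp2, Nip7 and Wdr74 were called, with largest adjusted p (limma) of 0.0222, 0.0311, 0.0043 and 0.0215. In BRSST-Ezh2 against Luc the count ran from 0 to 7. It was 0 without BRSST-Ezh2 2 or Luc 3, 1 without BRSST-Ezh2 1, and 2 without Luc 1 or Luc 2. Without BRSST-Luc 2 and 5 together, 12 members rose in BRSST-Luc against Luc and 10 in BRSST-Ezh2 against Luc. An array outside the 2 groups of a comparison enters only the shared estimate of the spread, so leaving it out changes no difference there.

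Arrays of 1 group differed across most of the set at once. In BRSST-Luc, 32 of 33 members were above their group mean on BRSST-Luc 3, and 5 of 33 were on BRSST-Luc 2. In BRSST-Ezh2 the counts were 28 on BRSST-Ezh2 2 and 6 on BRSST-Ezh2 4, and in Luc they were 29 on Luc 4 and 7 on Luc 3. The median deviation of the members from their group mean reached 0.41 on BRSST-Luc 3, while over all tested genes it stayed between -0.03 and 0.05 on every array. The median SD of members was 0.238 in BRSST-Ezh2, 0.324 in BRSST-Luc and 0.163 in Luc, beside 0.188, 0.248 and 0.154 over all tested genes. Polr1a had the largest SD in BRSST-Luc, 0.61, and Nip7 the smallest, 0.13.

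The mean log2 signal of the 33 members was 9.57, 9.79, 9.66 and 9.42 on the BRSST-Ezh2 arrays, 9.58, 9.25, 9.90, 9.53 and 9.35 on the BRSST-Luc arrays, and 9.27, 9.29, 9.12 and 9.41 on the Luc arrays. BRSST-Luc 2 and BRSST-Luc 5 thus lay within the Luc range of 9.12 to 9.41, and BRSST-Ezh2 4 lay just above it at 9.42. BRSST-Luc 3 was the highest of all. Myc, the transcription factor, read 10.61, 11.07, 11.06 and 10.44 in BRSST-Ezh2, 10.46, 10.00, 11.23, 10.75 and 10.22 in BRSST-Luc, and 10.08, 10.24, 9.62 and 10.31 in Luc. In each group the array highest in Myc was the array with the highest member mean, and likewise for the lowest. The full order was shared in BRSST-Ezh2 and Luc, and in BRSST-Luc arrays 1 and 4 changed places. Those highest and lowest arrays were shared in all 3 groups by 3 of 33 single members, Fbl, Nolc1 and Nop2, which are part of the mean, and by 35 of 10568 other tested genes (0.331%), Myc among them. Genes measured on 1 array share its RNA and scaling, and this match was found after the values were seen. Myc itself differed by 0.73 ± 0.25 in BRSST-Ezh2 against Luc (limma adjusted p = 0.08), by 0.47 ± 0.23 in BRSST-Luc against Luc (0.171) and by 0.26 ± 0.23 in BRSST-Ezh2 against BRSST-Luc (0.672).

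**Figure D4:**
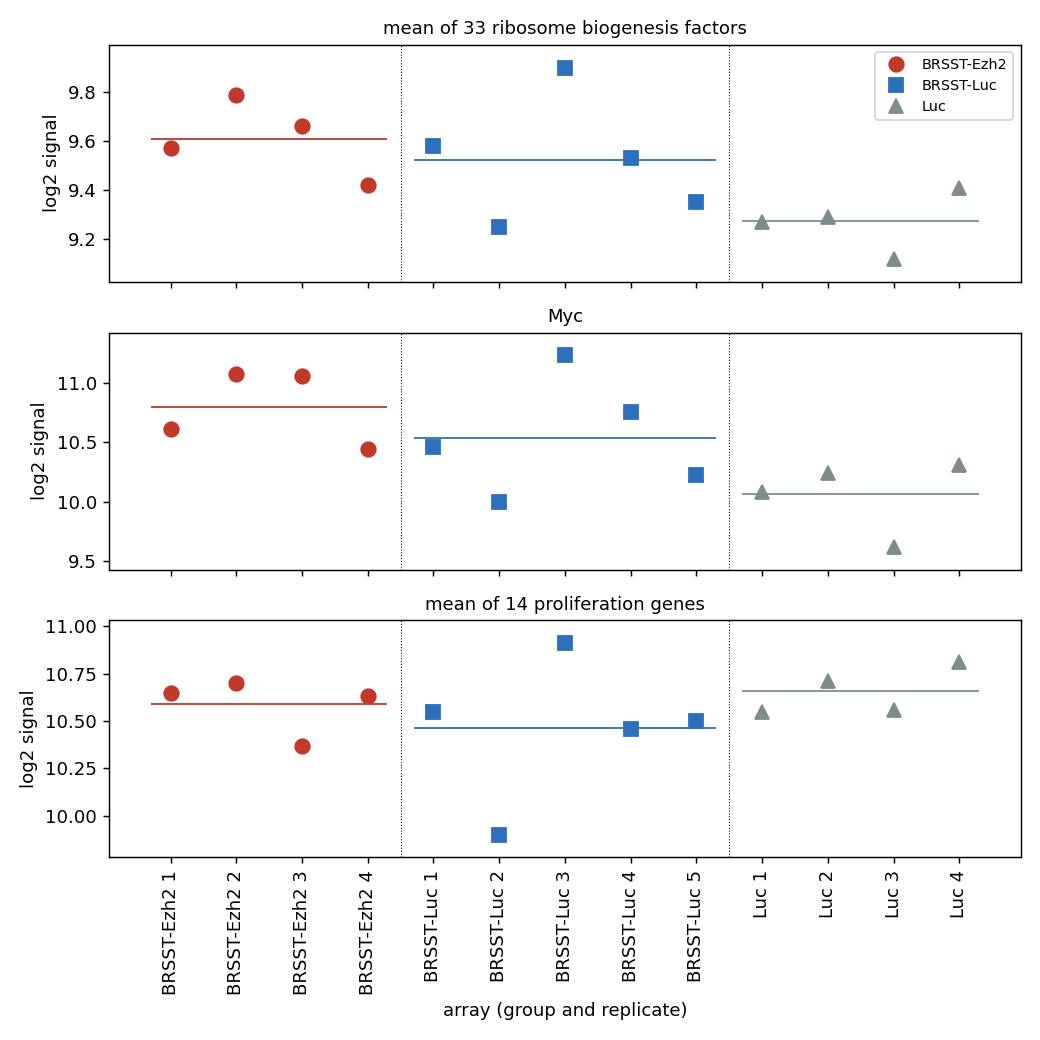
Mean log2 signal of the 33 tested members, log2 signal of Myc and mean log2 signal of 14 proliferation genes on each array, with a line at each group mean; the vertical axes do not start at 0. BRSST-Luc 3 is highest in all 3 panels, while the Luc group mean is lowest for the members (9.27) and Myc (10.06) but not for proliferation genes (10.66).

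Proliferation genes differed little between groups in their mean, while single genes ran from -0.85 to 0.24 in BRSST-Luc against Luc. Their mean log2 signal was 10.59 ± 0.15 in BRSST-Ezh2, 10.46 ± 0.36 in BRSST-Luc and 10.66 ± 0.13 in Luc (SD, n = 4, 5 and 4). Of 14 tested, 0 rose and 2 fell in BRSST-Luc against Luc (Top2a and Bub1), a share near that of all tested genes that fell (11.7%), and 0 changed in BRSST-Ezh2 against Luc (limma, 1 at an unadjusted p under 0.05) or in BRSST-Ezh2 against BRSST-Luc (0 at an unadjusted p under 0.05). Their median log2 difference was -0.127 in BRSST-Luc against Luc, 0.034 in BRSST-Ezh2 against Luc and 0.118 in BRSST-Ezh2 against BRSST-Luc, with 4, 10 and 11 of 14 genes above 0. Within BRSST-Luc the lowest array, BRSST-Luc 2 at 9.90, and the highest, BRSST-Luc 3 at 10.91, were the same as for the member mean.

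Other genes of the pathway were taken from lists of factors outside the set, and their counts stand beside 10.8% of all tested genes higher in BRSST-Luc against Luc and 5.51% in BRSST-Ezh2 against Luc. Of 42 further small subunit factors, 11 rose (26.2%) and 0 fell in BRSST-Luc against Luc, and 4 rose (9.52%) and 0 fell in BRSST-Ezh2 against Luc. Pno1, a platform assembly factor, rose by 1.18 ± 0.30 (limma adjusted p = 0.0131), Fcf1 by 0.78 ± 0.11 (0.000313), Esf1 by 0.72 ± 0.16 (0.00695) and Nol6 by 0.66 ± 0.22 (0.047) in BRSST-Luc against Luc. With BRSST-Ezh2, Noc4l rose against Luc by 0.68, Nob1, the endonuclease of the last cut, by 0.65, Ddx10 by 0.48 and Fcf1 by 0.46. Of 40 further large subunit factors, 9 rose and 1 fell (Nvl) in BRSST-Luc against Luc, and 8 rose and 0 fell in BRSST-Ezh2 against Luc. Ccdc86 rose by 0.96 ± 0.15 (adjusted p = 0.000861), Rrp15 by 0.78 ± 0.18, Rsl1d1 by 0.67 ± 0.18 and Rpf2, the partner of Rrs1, by 0.58 ± 0.13 in BRSST-Luc against Luc. The rises in BRSST-Ezh2 against Luc were 0.87 for Rsl1d1, 0.73 for Ccdc86, 0.68 for Rpf2 and 0.59 for Nmd3, the export adaptor.

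Of 13 exosome genes, which code for the complex that trims pre-rRNA and its cofactors, 5 rose in BRSST-Luc against Luc and 3 in BRSST-Ezh2 against Luc, and 0 fell in either. C1d rose by 0.92 ± 0.19 (limma adjusted p = 0.0039), Exosc9 by 0.80 ± 0.16, Mphosph6 by 0.74 ± 0.15 and Exosc1 by 0.62 ± 0.10 in BRSST-Luc against Luc. Exosc5, Exosc9 and Exosc1 rose by 0.73, 0.61 and 0.55 in BRSST-Ezh2 against Luc. Of 9 snoRNP assembly genes, 3 rose in BRSST-Luc against Luc, namely Znhit3 by 1.16 ± 0.13, Nufip1 by 0.81 ± 0.12 and Znhit6 by 0.68 ± 0.20, and 1 rose in BRSST-Ezh2 against Luc, Znhit3 by 0.72 ± 0.13. Of 16 further Pol I and rDNA transcription genes, 3 rose in BRSST-Luc against Luc, Polr2f by 0.54, Polr2k by 0.50 and Twistnb by 0.40, of which the first 2 are shared with other polymerases. None of them changed in BRSST-Ezh2 against Luc, 0 of 16 (at an unadjusted p under 0.05, 3 were higher and 1 was lower).

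Of 10 Myc network genes, 0 rose and 1 fell in each comparison with Luc (limma), where 11.7% and 3.86% of all tested genes fell. At an unadjusted p under 0.05 there was 1 higher in each, Mnt in BRSST-Luc against Luc and Myc in BRSST-Ezh2 against Luc, and 2 lower (Mga and Mxd3) and 3 lower (Mycl, Mxd1 and Mxd3). Mxd3 fell by 0.37 on the log2 scale in BRSST-Luc against Luc (limma adjusted p = 0.0416), and Mxd1 fell by 0.55 in BRSST-Ezh2 against Luc (adjusted p = 0.0333). In BRSST-Ezh2 against BRSST-Luc, 0 genes of these 6 lists passed. At an unadjusted p under 0.05 there were 2 higher and 0 lower large subunit factors, 0 and 3 small subunit factors, 0 and 2 exosome genes, 0 and 2 snoRNP assembly genes, 0 and 0 Pol I genes, and 1 and 1 Myc network genes.

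Marker genes of several marrow cell types differed in the same comparisons. Over all tested genes, 10.8% rose and 11.7% fell in BRSST-Luc against Luc, and 5.51% rose and 3.86% fell in BRSST-Ezh2 against Luc. The mean log2 signal of 8 B lineage genes ran from 6.86 to 9.10 in BRSST-Ezh2, from 6.79 to 8.78 in BRSST-Luc and from 9.40 to 10.68 in Luc, and 6 of 7 tested fell in BRSST-Luc against Luc and 2 of 7 in BRSST-Ezh2 against Luc. T and NK cell genes ran from 5.92 to 8.68 in BRSST-Ezh2, from 5.93 to 7.72 in BRSST-Luc and from 8.36 to 8.79 in Luc, with 6 of 6 lower in BRSST-Luc against Luc and 0 of 6 called in BRSST-Ezh2 against Luc (2 lower at an unadjusted p under 0.05). Monocyte and macrophage genes ran from 9.06 to 9.99 in BRSST-Ezh2, from 8.48 to 9.77 in BRSST-Luc and from 10.04 to 10.24 in Luc, with 4 of 7 and 2 of 7 lower. Erythroid genes ran from 7.22 to 8.09 in BRSST-Ezh2, from 8.15 to 9.12 in BRSST-Luc and from 7.23 to 7.66 in Luc, with 3 of 6 higher in BRSST-Luc against Luc and 0 of 6 called in BRSST-Ezh2 against Luc (1 higher at an unadjusted p under 0.05). Neutrophil genes had 2 of 11 higher and 3 of 11 lower in BRSST-Luc against Luc, and 2 higher and 1 lower in BRSST-Ezh2 against Luc. Their mean hid opposite moves. In both comparisons with Luc, 4 of 11 differences were above 0 and 7 below, from -0.76 to 0.78 and from -0.58 to 0.79. Ctsg rose by 0.78 and Ltf fell by 0.58 in BRSST-Luc against Luc (limma adjusted p = 0.000177 and 0.00118). Stem and progenitor genes had 1 of 5 lower in BRSST-Luc against Luc, which does not set them apart from the share of all tested genes. Mean signals of the neutrophil and of the stem and progenitor genes were 12.80 and 8.85 in BRSST-Ezh2, 12.73 and 8.61 in BRSST-Luc, and 12.83 and 8.79 in Luc. In BRSST-Ezh2 against BRSST-Luc, where 0.67% of all tested genes rose, 1 of 7 monocyte and macrophage genes was called, Mpeg1, which rose by 1.38 (limma adjusted p = 0.0371). There the erythroid genes had a median difference of -0.888 (6 of 6 below 0, 5 at an unadjusted p under 0.05), and the medians were 1.235 for T and NK cell genes (3 of 6 higher at an unadjusted p under 0.05), 0.84 for B lineage genes (1 of 7) and 0.836 for monocyte and macrophage genes (4 of 7). The part of these cell types in the members' differences was not tested.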

How the data were processed

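Complete bone marrow RNA was measured on 13 Affymetrix arrays in 3 groups taken from the labels. A Zymo kit was used for RNA and a Pico kit for labelling, starting from 2 ng with 10 cycles of PCR, per the labels' protocols, and such amplification can compress large differences. The authors deposited log2 signals, for which the submitters' processing notes name R 3.5.01 and oligo without its version. Background correction and scaling, not given in the sources used here, can affect small differences, and the log2 scale was read from the values (3.23 to 13.75). Precision is limited by the number of arrays.

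The table has 22203 rows, of which 19572 had 1 gene symbol and 2631 had none. For 55 of 19505 symbols with several rows, the row of highest mean was used, and no member had several. Testing required a signal above the array's median on at least 4 arrays. The tool was limma 3.58.1 under R 4.3.3 (lmFit and eBayes, 1 fit over 13 arrays, no covariates), with Benjamini-Hochberg adjustment over 10601 genes, a threshold of 0.05 and two-sided tests, and every adjusted p is from that tool. The procedure was tested on simulated data with independent noise for each gene, which does not cover shifts that many genes share on an array. Promoter windows are RefSeq's on GRCm38.p6, matched by symbol. Python 3.11.15 with pandas 2.3.3 and matplotlib 3.10.9 made the tables and figures.

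The members and the other gene lists were chosen with earlier results of these data known, so they are no independent support for the differences described. All members are accounted for, called ones with every array's value. From each other list, up to 4 called genes per comparison with the largest difference are named. Same-numbered arrays of different groups correlated from -0.176 to 0.192 in their deviations (12 pairs, 4 over 0.1), so the numbers were not taken as pairs.

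Alternatives were no filter and a filter at the 75th percentile, quantile normalization, array quality weights, equal array medians, a trended, robust variance, the mean over a gene's rows, a stricter threshold of 0.01, the 2 compared groups alone, the replicate number or the Y-linked class as a block, BRSST-Luc 2 and 5 left out together, and each array left out in turn.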

Additional observations from a re-analysis of the deposited data

Results flagged for a closer look

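In 7 of 102 groups of 4 or 5 arrays, 1 array lay far from the others of its group for a ribosome biogenesis factor, where chance alone gives about 5.1, or 1 in 20. The Luc group held 3 of them. Luc 4 was high for Fbl, at 11.18 with the next array at 10.99. Luc 3 was low for Npm1, at 11.0 with the next array at 11.65, and low for Nip7, at 7.75 with the next array at 8.22. In BRSST-Ezh2, array 4 was low for Gar1, at 10.34 with the next array at 10.85, and array 3 was high for Nle1, at 7.91 with the next array at 7.57. In BRSST-Luc, array 2 was low for Nop14, at 8.23 with the next array at 9.37, and array 3 was high for Noc2l, at 9.19 with the next array at 8.47.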

How the results depend on the processing

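No member changed in BRSST-Ezh2 against BRSST-Luc under any alternative, and the members' median difference there ran from 0.027 to 0.226 when 1 array was left out and from -0.016 (without BRSST-Luc 2 and 5 together) to 0.114 otherwise. In BRSST-Luc against Luc the count of 8 changed members became 4 at an adjusted p of 0.01 and 14 with array quality weights, and 4 to 10 with 1 array left out. In BRSST-Ezh2 against Luc the count of 5 became 0 at an adjusted p of 0.01, 16 with array quality weights, 10 with the 2 compared groups alone, 10 without BRSST-Luc 2 and 5 together, and 0 to 7 with 1 array left out. A stricter threshold lowers a count by construction. For BRSST-Ezh2 against Luc, leaving out BRSST-Luc arrays or fitting the 2 compared groups alone changes no log2 difference, only the estimate of spread. For the other settings the cause was not tested. All counts in this section stand without the share of all tested genes called in the same fit. They therefore do not set the members apart from other genes. Median differences stayed above 0 in both comparisons with Luc, from 0.132 to 0.311 for BRSST-Luc and from 0.248 to 0.372 for BRSST-Ezh2. With the replicate number as a block, which does not mark pairs here, 6 and 4 members rose in those comparisons and 0 changed in BRSST-Ezh2 against BRSST-Luc. With the Y-linked class as a block, Polr1b and Wdr12 were no longer called in BRSST-Luc against Luc. Under that block Nhp2 and Nop16 were called in BRSST-Ezh2 against Luc (limma adjusted p = 0.0497 and 0.0455). Mrto4, Nhp2 and Wdr74 were called in BRSST-Luc against Luc under all alternatives at the 0.05 threshold, and Nip7 in all but the filter at the 75th percentile, which it did not pass. Counted per member and alternative fit over all 33 members, calls were lost 35 times and gained 17 times in BRSST-Luc against Luc, and lost 26 times and gained 33 times in BRSST-Ezh2 against Luc.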
